A study of Mus musculus with 6 samples.

Results

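Kit, the receptor tyrosine kinase for stem cell factor, was measured in stimulated CD8 T cells in 6 RNA-seq libraries. It is 1 gene of the 49492 in the deposited count table. It was chosen by its counts, which were higher in every library labelled KO than in any labelled WT. Its own difference between the groups is therefore given as a description, with no test. Naive CD8 T cells had been purified from spleens of C57/BL6 mice aged 6 to 8 weeks that carried OT-I. OT-I is a transgenic T cell receptor against an ovalbumin peptide. The WT group (replicates 1 to 3) came from wild type OT-I mice. The KO group (replicates 4 to 6) came from mice labelled NIK-CD4Cre-OT-I, in which Cre under Cd4 control is active from the thymus onward. Both groups share the receptor transgene. NIK is the kinase that starts noncanonical NF-kB signalling. All cells were kept for 24 hours on plate-bound anti-CD3 with soluble anti-CD28, each at 1 µg/ml. The labels do not tie libraries to mice. The sex-linked transcript Xist shows that each group came from more than 1 mouse. Libraries of the same sex within a group could still share an animal, so part of the spread behind each p-value may be technical.

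Kit binds stem cell factor, the product of Kitl, and dimerises. It then signals through PI3 kinase, RAS and STAT5, and is shut off by phosphatases and by ubiquitin ligases such as CBL. Stem and progenitor cells of the blood, mast cells, melanocytes and germ cells depend on it, and the earliest thymocytes carry it. Mature T cells are not a classical site of its expression. The Kit promoter is rich in G and C.

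In the GRCm38 assembly (mm10) Kit lies on chromosome 5, 75574916 to 75656722, plus strand, between the related receptor genes Pdgfra and Kdr. GENCODE M21 gives it 8 transcripts, the longest with 21 exons, and no other annotated gene overlaps it on either strand. Of the 8901 distinct stretches of 50 bases in those transcripts, 0 occurred in a transcript of another gene on either strand. The count covers all 8 transcripts, and isoforms were not separated. The sequence just upstream, which shows the base composition from which this gene is transcribed, is chr5:75574737-75574915, plus strand, from RefSeq on GRCm38.p6, ending at the base before the first annotated base of the gene. Capitals mark its match to the GC box GGGCGG, the element bound by SP1.
Kit upstream: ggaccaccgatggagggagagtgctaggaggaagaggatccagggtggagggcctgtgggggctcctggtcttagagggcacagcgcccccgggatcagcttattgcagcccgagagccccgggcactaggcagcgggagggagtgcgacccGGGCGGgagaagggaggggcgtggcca

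The 250 bases before the first of 2 RefSeq starts of Kit were 70.8% G and C, against a median of 52.4% over 32851 such windows. The end of this window, up to 75574986, lies within the GENCODE gene and is not printed above. On both strands, GGGCGG had 1 match in the 250 bases and is present in 32.7% of the windows. The GATA letters GATAA (22.6% of windows), the E-box CANNTG (66.2%) and a strict NF-kB consensus (0.356%) had 0 matches. A match or its absence describes these letters only.

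Library totals ran from 41311346 to 47851445 counts. CPM are counts scaled to library size with TMM factors, and 3 counts correspond to 0.0627 to 0.0722 CPM. Map3k14, the gene for NIK, was detected in every library, at 53.6, 65.5 and 65.3 CPM in WT 1 to 3, against 50.7, 64.5 and 54.7 CPM in KO 4 to 6 (log2 fold -0.12, SE 0.11, adjusted p = 0.806 in edgeR's quasi-likelihood test). Its groups overlapped, so this count does not check the labels, and each direction is one between libraries as labelled. The sources used here do not name the deleted part of the gene. CD8 T cell markers were abundant, with Cd8a at 488.3 to 593.0 CPM, and Cd4 stayed at 0.367 to 0.920 CPM. Both groups held libraries from female and male mice, judged by Xist counts.

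The Kit counts were 174, 238 and 137 for WT replicates 1 to 3 and 478, 846 and 956 for KO replicates 4 to 6. On the normalised scale these were 3.88, 5.21 and 2.96 CPM in the libraries labelled WT and 9.99, 19.2 and 23.0 CPM in those labelled KO. All 3 KO libraries lay above all WT libraries, and within the KO group replicate 4 lay well below the other two. Kit averaged 4.01 CPM ± 1.13 (SD, n = 3) in WT and 17.4 CPM ± 6.70 (SD, n = 3) in the KO group. The ratio of these means was 4.34, and edgeR's fitted log2 fold was 2.11. Reading order from the highest, KO replicate 6 came first, then KO 5, KO 4, WT 2, WT 1 and WT 3.

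**Figure D1:**
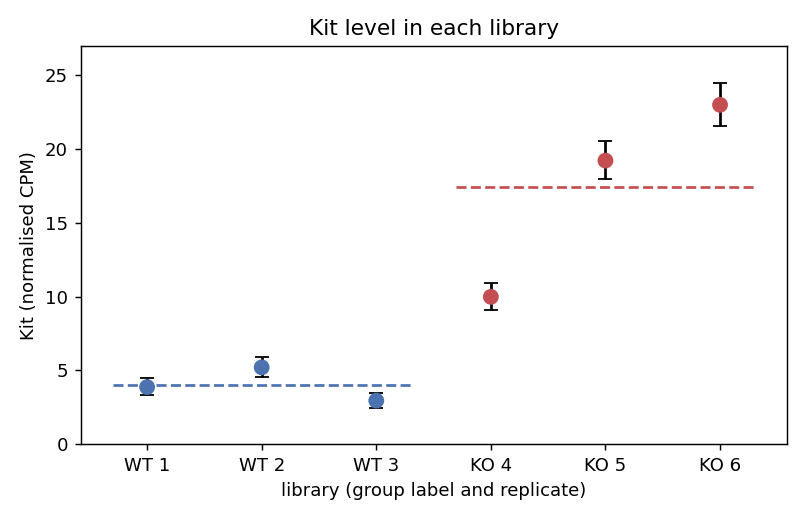
Kit in normalised CPM (vertical axis) in each of the 6 libraries (horizontal axis). Points are libraries, bars are exact Poisson 95% intervals for counting error only, and dashed lines are the group means of 4.01 CPM (WT) and 17.4 CPM (KO). The WT libraries sit between 2.96 and 5.21 CPM and the KO libraries between 9.99 and 23.0 CPM.

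Exact Poisson 95% intervals, which cover counting error only, separated most neighbours in this order. The interval of KO replicate 6 (21.6 to 24.5 CPM) lay above that of KO 5 (18.0 to 20.6 CPM), which lay above that of KO 4 (9.12 to 10.9 CPM). KO replicate 4 lay in turn above WT 2 (4.57 to 5.92 CPM). WT 1 (3.32 to 4.50 CPM) stayed just under WT 2 and overlapped WT 3 (2.48 to 3.50 CPM). Counting error was thus smaller than the spread within either group, whose highest and lowest libraries differed 1.76-fold in WT and 2.30-fold in KO. On a scale of log2(CPM + 0.5) the SD was 0.36 in the WT group and 0.61 in the KO group.

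The lowest library labelled KO exceeded the highest labelled WT 1.92-fold. Among 11967 genes averaging 1 CPM or more, 3 had a larger gap of this kind, and these were named after their values were seen: the kinase gene Dclk1 (3.08-fold), the MS4A family gene Ms4a4c (2.21-fold) and the RNA sensor gene Oas1a (2.05-fold). The choice of Kit used this gap, so its place among these genes is a description. By fitted log2 fold, 3 of these genes also stood above Kit, namely Dclk1 (2.66), Xlr (2.47) and the complement gene C1qb (2.15). Xlr was at 4.39 CPM in KO replicate 5 and at 0.129 to 0.502 CPM elsewhere, and C1qb overlapped between the groups, unlike Kit. Split by sex, which the gap between the groups cannot turn in direction, the ratio for Kit was 6.73 in the female libraries (KO 6 against the mean of WT 1 and 3) and 2.80 in the male libraries (the mean of KO 4 and 5 against WT 2). Leaving out 1 library at a time gave log2 folds from 1.86 (without KO 6) to 2.39 (without KO 4).

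Levels of different genes were compared per kb of exon, on which scale Kit was a low to moderate transcript. It stood at 0.435, 0.585 and 0.332 CPM per kb in WT replicates 1 to 3, above 15.1% to 20.6% of the 14707 tested genes with a length. In KO replicates 4 to 6 it stood at 1.12, 2.16 and 2.58 CPM per kb, above 29.3% to 39.5% of them. Bulk RNA cannot tell fewer Kit-bearing cells from less Kit RNA per cell, so the values do not say whether few or many cells carried it. Among 40 receptor tyrosine kinase genes per kb of exon Kit ranked 11, 11 and 13 from the top in the WT libraries, and 9, 6 and 5 in KO replicates 4, 5 and 6. In KO replicate 6 it stood below the collagen receptor Ddr1 (3.49), the GAS6 receptor Axl (5.46) and the growth factor receptors Igf1r (4.75) and Insr (2.78 CPM per kb). Insr ranged only from 2.31 to 2.90 CPM per kb over the 6 libraries, a range that Kit entered in KO replicate 6. Among the other receptor tyrosine kinases of the list, 18 of 34 were tested and 0 were called, and an unadjusted p under 0.05 was reached by 2 upward and 3 downward, where the shares over all tested genes were 0.00659% called, 3.82% upward and 3.44% downward. The 2 with the smallest p were at low levels, with group means under 1 CPM. These were Met, the hepatocyte growth factor receptor (0.205 against 0.457 CPM, WT and KO means, edgeR adjusted p = 0.638), and the ephrin receptor Ephb4 (0.561 against 0.322 CPM, edgeR adjusted p = 0.649).

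**Figure D2:**
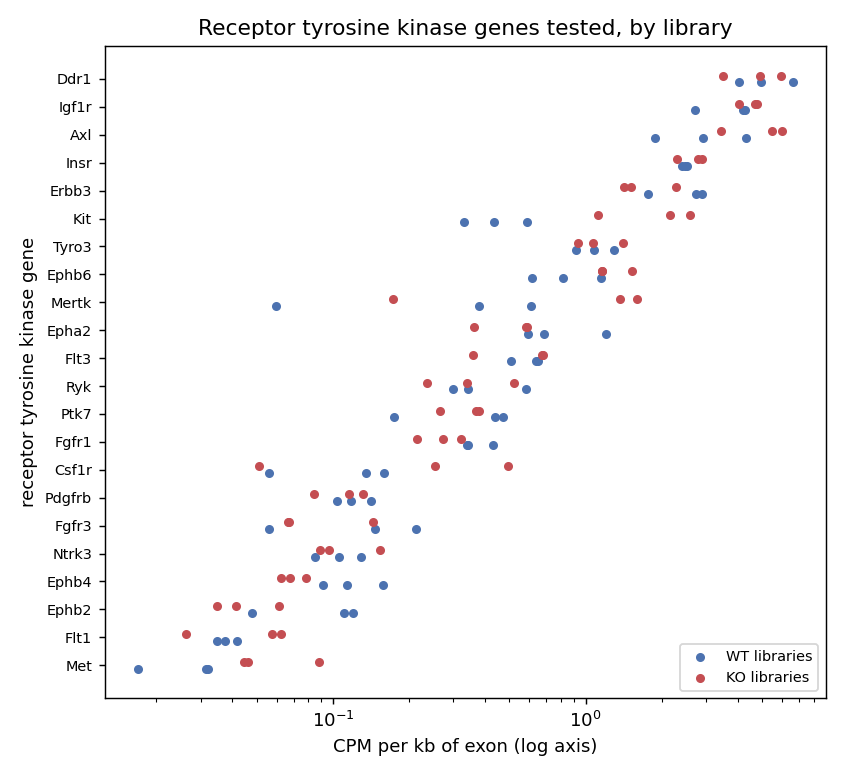
Level in CPM per kb of exon (horizontal log axis) of the 22 tested receptor tyrosine kinase genes (vertical axis, ordered by their mean), with 1 point per library. Kit moves from 0.332 to 0.585 in the WT libraries to 1.12 to 2.58 in the KO libraries, while Insr stays between 2.31 and 2.90.

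Across all 15186 tested genes, edgeR called 1 gene at an adjusted p under 0.05, Ms4a4c, which is 0.00659% of them. Of all tested genes, 3.82% had higher and 3.44% lower KO estimates at an unadjusted p under 0.05. Every KO library lay above every WT library in 6.68% and below in 6.07%, together 12.8%. No gene was called lower (0%). DESeq2 called 0.586%. The other genes of the Kit pathway were read against these shares. Of 67 listed ligands, receptors, signal carriers, inhibitors and transcription regulators, 59 were tested and edgeR called 0. At an unadjusted p under 0.05 there were 2 higher and 3 lower, or 8.47% of those tested against 7.26% of all genes, and DESeq2 called 2. With 0.00659% of all genes called by edgeR, a count of 0 among 59 is near the background. The 2 genes called by DESeq2 were Stat5a and Myb.

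The ligand was barely detected. Kitl, which encodes stem cell factor, was at 0.200, 0.394 and 0.194 CPM in WT 1 to 3, against 0.982, 0.0909 and 1.47 CPM in KO 4 to 6. The groups overlapped, since KO replicate 5 had the lowest value of all libraries (4 counts) although its Kit level was the second highest. The log2 fold of Kitl was 1.67 (SE 0.82, edgeR adjusted p = 0.697). Flt3, the closest receptor of the family by level, was at 3.14 to 4.01 CPM in WT and 2.22 to 4.21 CPM in KO libraries (log2 fold -0.07, edgeR adjusted p = 0.959), so per kb Kit and Flt3 were near each other in WT libraries (means 0.450 and 0.598 CPM per kb) and apart in KO libraries (1.95 and 0.571). Flt3l, the ligand of Flt3, had the smallest p of this list, at 33.5 CPM ± 4.89 against 26.2 CPM ± 2.50 (WT and KO, SD, n = 3 each; edgeR adjusted p = 0.628). Csf1r, the macrophage growth factor receptor, followed the library pattern of Kitl, not that of Kit, at 0.780, 0.919 and 0.324 CPM in WT and 1.46, 0.295 and 2.84 CPM in KO libraries (edgeR adjusted p = 0.735). Pdgfra had 0 counts in every library and Kdr had 3 to 22. Of the 9 genes of this list 6 were tested, with a median log2 fold of 0.00, against 0.01 over all tested genes.

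The summed level of the signal carriers of Kit was similar in the groups, although not every carrier was well detected: the adaptor Gab1 had at most 2 counts in a library and was not tested. The 28 adaptors and kinases summed to 4233 to 4505 CPM in WT and 4288 to 4351 CPM in KO libraries, and 27 were tested, with a median log2 fold of 0.01. Stat5a, a transcription factor that Kit and the IL-2 receptor both activate, was at 298.4, 297.6 and 310.5 CPM in WT and 261.7, 256.1 and 269.5 CPM in KO libraries. The KO libraries were all under the WT libraries (log2 fold -0.20, SE 0.04). DESeq2 called Stat5a (adjusted p = 0.011) and edgeR did not (adjusted p = 0.525). Its estimate was opposite in sign to that of Kit. The median among the 13 negative regulators was -0.01. Cbl, the ubiquitin ligase that removes activated Kit, had the smallest p among them, at 346.8 CPM ± 10.2 against 375.5 CPM ± 6.06 (WT and KO, SD, n = 3 each; edgeR adjusted p = 0.673). The cytokine signalling inhibitor Socs1 came next, with a log2 fold of -0.18 (edgeR adjusted p = 0.756).

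**Figure D3:**
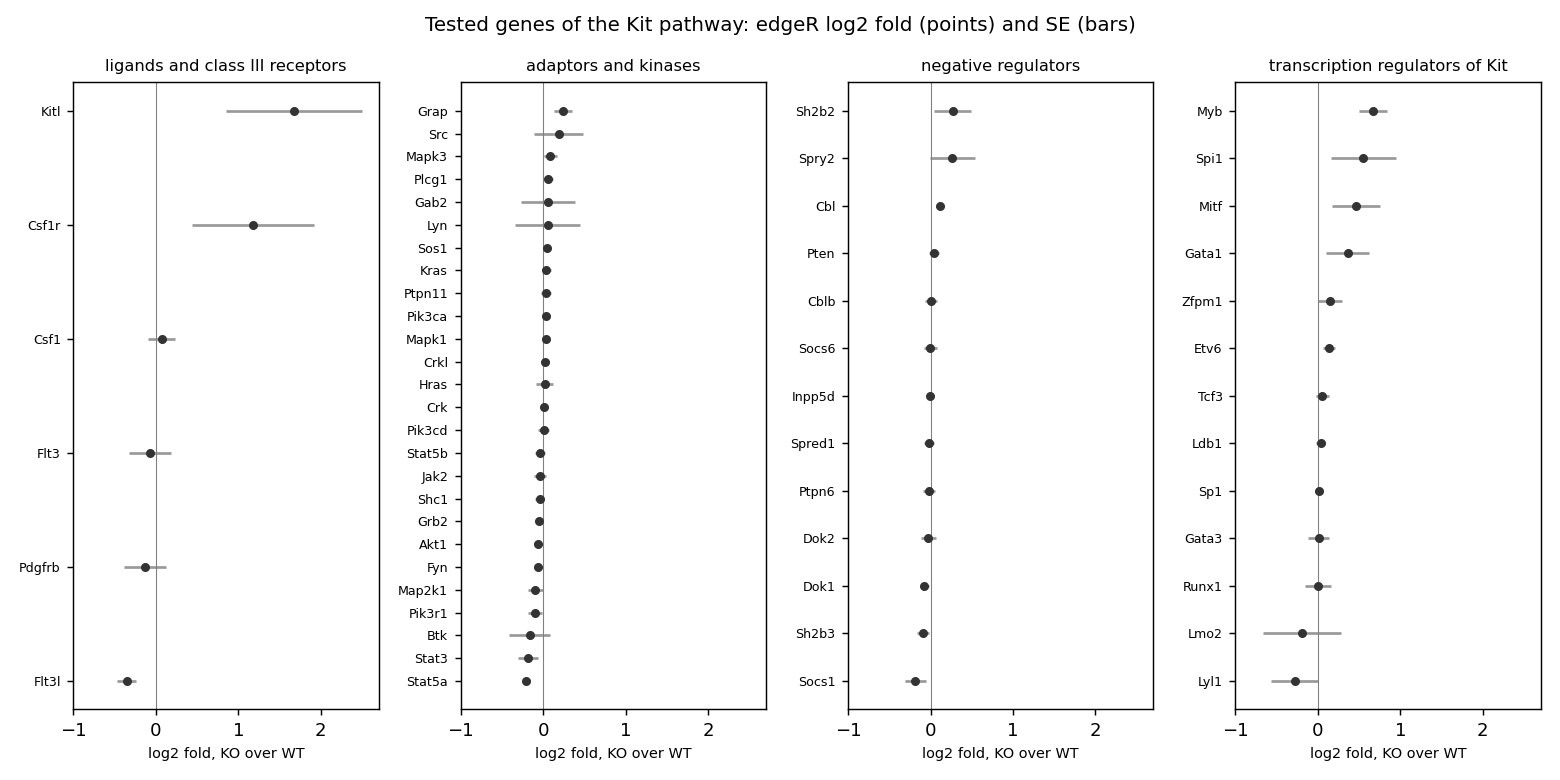
EdgeR log2 fold of KO over WT (horizontal axis; points, with SE as bars) for tested genes of the 4 Kit pathway lists (vertical axes). Most points lie near 0, Kitl and Csf1r lie far right with wide bars, and Myb leads the transcription regulators at 0.67.

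Of the factors known to regulate the Kit locus in blood, mast or pigment cells, edgeR called 0 and DESeq2 called 1, Myb. Myb, a transcription factor of progenitors and thymocytes with known sites at Kit, was at 172.3, 108.9 and 131.1 CPM in WT 1 to 3, against 206.1, 246.2 and 203.1 CPM in KO 4 to 6. Every KO library lay above every WT library, but the order within the groups was not that of Kit, since WT 1 was the highest of its group and KO 6 the lowest. The log2 fold was 0.67 (SE 0.17). DESeq2 called Myb higher (adjusted p = 0.011) and edgeR did not (adjusted p = 0.596), although edgeR did so without WT replicate 1 (log2 fold 0.87, adjusted p = 0.043). Gata2 and Tal1, which act on Kit in progenitors and mast cells, had 1 to 8 and 0 to 12 counts. Gata3, the T cell member of the GATA family, averaged 15.7 CPM ± 1.12 and 15.8 CPM ± 2.60 (WT and KO, SD, n = 3 each; edgeR adjusted p = 0.991). Mitf, the Kit regulator of mast and pigment cells, averaged 1.13 CPM ± 0.210 and 1.55 CPM ± 0.519 (edgeR adjusted p = 0.739), and Etv6, an ETS family repressor, was estimated at 0.13 (log2 fold, edgeR adjusted p = 0.710). Of 17 factors, 13 were tested, 11 of them with estimates above 0 (median log2 fold 0.06), beside 52.4% of all tested genes.

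Neighbouring genes on chromosome 5 did not share the pattern of Kit. Of the 4 nearest protein-coding genes on each side, Pdgfra, Gsx2 and Lnx1 had 0 counts in every library and Kdr was too low to be tested. Chic2, whose nearer end lies 530.1 kb before Kit, averaged 30.5 CPM ± 1.73 and 33.5 CPM ± 1.42 (WT and KO, SD, n = 3 each; edgeR adjusted p = 0.697). On the other side Srd5a3, a steroid reductase family gene, lay 483.5 kb away (log2 fold 0.07, edgeR adjusted p = 0.812). Tmem165 (log2 fold 0.07, edgeR adjusted p = 0.804) and the circadian gene Clock (log2 fold 0.04, edgeR adjusted p = 0.895) followed. In each of these 4 the groups overlapped, and 0 were called by edgeR or by DESeq2.

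Markers of other cells that carry Kit were measured in the same libraries. Of 14 mast cell and basophil markers, 6 had 0 counts in every library, among them the mast cell proteases Cma1, Mcpt4, Tpsb2 and Tpsab1. Cpa3, mast cell carboxypeptidase, had 1 count in WT replicate 1 and 0 in the others. The whole list summed to 1.21 to 1.58 CPM in WT and 1.19 to 1.86 CPM in KO libraries, mostly from the histamine-forming enzyme Hdc (edgeR adjusted p = 0.803) and the IL-33 receptor Il1rl1 (edgeR adjusted p = 0.843), the 2 tested members. The progenitor antigen Cd34 had 0 to 4 counts, and Mecom, Elane and Prtn3 had 0 in every library. The list of 15 blood progenitor markers summed to 25.2 to 31.3 CPM in WT and 31.3 to 38.9 CPM in KO libraries. In each of the 6 tested members the groups overlapped. The sums did not overlap, by a narrow margin. Their largest part was Sox4, which T cells also express (log2 fold 0.30, edgeR adjusted p = 0.698), while Procr, the endothelial protein C receptor of stem cells and endothelium, was at 2.54, 3.06 and 1.08 CPM in WT and 6.25, 1.02 and 6.35 CPM in KO libraries (edgeR adjusted p = 0.741). KO replicate 5, with the second highest Kit level, had the least Procr. The part of such cells in the Kit level was not tested.

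Markers of immature thymocytes, red cell precursors and innate lymphocytes were low where they are specific. Rag1 had 0 to 4 counts, Rag2 had 0, and Ptcra, the pre-T cell receptor chain, had 0 to 3. Klf1, a red cell transcription factor, had 3 to 9 counts. Of 11 erythroid markers the transferrin receptor Tfrc made nearly the whole sum, which ran from 652.9 to 842.7 CPM in WT and 735.6 to 897.8 CPM in KO libraries, and Tfrc is a marker of dividing cells in general (edgeR adjusted p = 0.896). The erythropoietin receptor Epor averaged 1.15 and 1.25 CPM (WT and KO means, edgeR adjusted p = 0.909). The 10 thymocyte markers summed to 574.6 to 688.6 CPM in WT and 572.8 to 671.0 CPM in KO libraries, nearly all from Notch1, Themis and Il7r, which mature T cells express. The smallest p there were those of Cd4 (edgeR adjusted p = 0.749) and Bcl11a (edgeR adjusted p = 0.790). The 12 markers of innate lymphoid and natural killer cells summed to 21.3 to 23.6 CPM in WT and 20.4 to 25.7 CPM in KO libraries. Ncr1, the natural killer receptor, had 0 to 3 counts. The adaptor Tyrobp averaged 0.585 and 1.18 CPM (WT and KO means, edgeR adjusted p = 0.704).

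Summed macrophage and monocyte markers were highest in KO replicates 4 and 6. The 12 genes summed to 23.7, 41.5 and 24.3 CPM in WT 1 to 3, against 101.1, 38.1 and 87.9 CPM in KO 4 to 6, and none was at 0 in every library. Ly6c2, which activated and memory CD8 T cells also express, made most of this in every library except WT replicate 1, where it was at 8.13 CPM. It averaged 16.6 CPM ± 8.18 against 47.2 CPM ± 20.0 (WT and KO, SD, n = 3 each; edgeR adjusted p = 0.612). Without it, a choice made after its values were seen, the other 11 summed to 15.6, 17.0 and 7.25 CPM in WT and 34.5, 11.3 and 39.8 CPM in KO libraries. KO replicate 5 stood within the WT range of this sum, while its Kit level of 19.2 CPM lay above the highest WT library (5.21 CPM). KO replicate 4 had nearly as much of these markers as KO 6, and the lowest Kit of the KO group. EdgeR called 0 of the 11 tested markers, although 10 estimates were above 0 (median log2 fold 1.54), beside 52.4% of all tested genes. An unadjusted p under 0.05 was reached by 2 upward and 1 downward, beside 3.82% and 3.44% of all tested genes. The lysozyme gene Lyz2 (log2 fold 1.78, edgeR adjusted p = 0.638) had the second smallest p, and its groups overlapped.

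**Figure D4:**
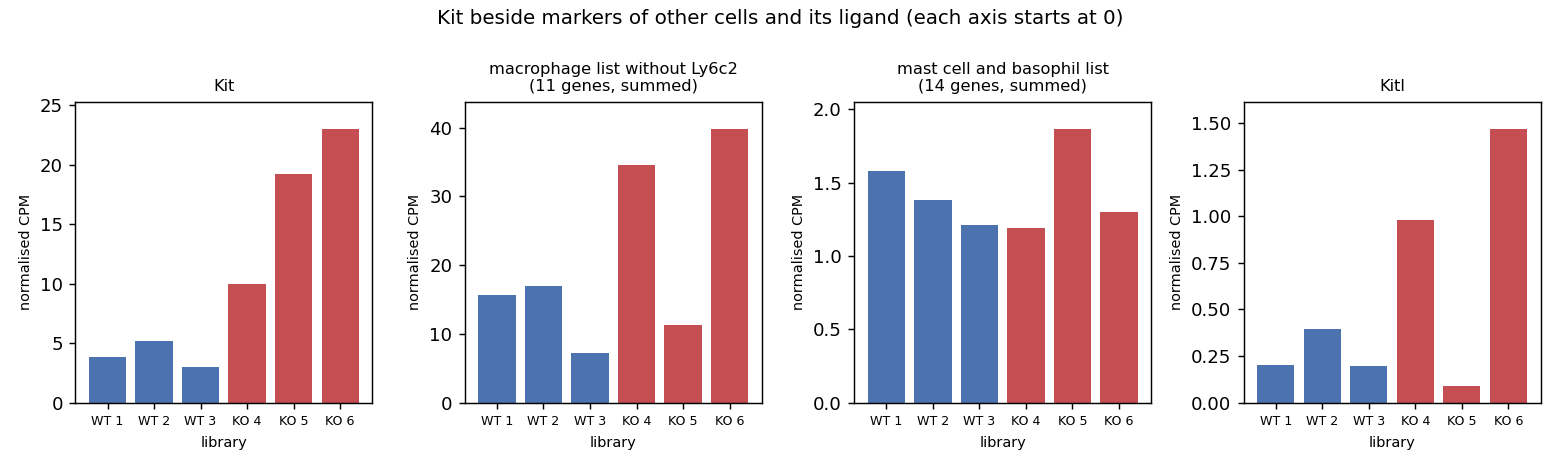
Normalised CPM (vertical axes, each from 0) in the 6 libraries (horizontal axes) for Kit, the summed macrophage list without Ly6c2, the summed mast cell and basophil list, and Kitl. KO replicate 5 is high for Kit (19.2 CPM) and within the WT range for the macrophage sum (11.3 CPM), and the mast cell sum stays under 1.87 CPM.

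Other myeloid and B cell markers differed in order from Kit. Dendritic cell markers (10 genes) summed to 79.1 to 128.5 CPM in WT and 71.3 to 124.4 CPM in KO libraries, with KO replicate 5 the lowest of all. The cross-presenting dendritic cell receptor Clec9a (edgeR adjusted p = 0.702) and the protease inhibitor Cst3 (edgeR adjusted p = 0.804) had the smallest p. Neutrophil markers (9 genes) summed to 0.245 to 0.591 CPM in WT and 0.659 to 0.941 CPM in KO libraries. These low sums did not overlap, and single genes did not overlap in 12.8% of all tested. The only tested marker, Csf3r, overlapped between the groups, with 6, 15 and 1 counts in WT and 26, 7 and 33 in KO libraries (edgeR adjusted p = 0.697). B cell markers (9 genes) summed to 344.3 to 402.5 CPM in WT and 336.9 to 369.4 CPM in KO libraries. All 9 had negative estimates, among them Cd79a (log2 fold -0.76, edgeR adjusted p = 0.726), beside 7226 of all 15186 tested genes. The part of any of these cells in the Kit level was not tested.

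Likeness to Kit was measured over the 6 libraries as the root mean square difference between 2 profiles of log2(CPM + 0.5), each centred on its own mean. A gene with the same level in all libraries lies 1.05 log2 units from Kit, and the median over the 10642 genes compared was 1.06. The 8 nearest genes lay 0.383 to 0.606 units away, and all 8 were higher in every KO library than in any WT library. Since Kit was chosen for its difference between the groups, genes that differ in the same way must come near it, and no test is given.

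Oas1a, an interferon-induced sensor of double-stranded RNA, was the nearest at 0.383 units. It was at 1.31, 1.60 and 0.777 CPM in WT and 3.78, 3.27 and 6.79 CPM in KO libraries. Oas1a belongs to a family of similar genes, so its read assignment is uncertain. St6galnac3, a sialyltransferase, came next at 0.388 units with 1.54, 1.75 and 1.25 CPM in WT and 2.76, 4.02 and 6.91 CPM in KO libraries. Of these 8 genes it alone ranked all 6 libraries in the order of Kit, which 0.211% of the tested genes did. The chemokine Cxcl10, also induced by interferon, followed at 0.481 units with 6.66, 9.33 and 6.97 CPM in WT and 13.9, 14.8 and 25.3 CPM in KO libraries. The remaining genes were the orphan receptor Gprc5b (0.552), Ms4a4c (0.575), the hair cell channel gene Tmie (0.595), a gene named only by its clone (0.603) and Ikzf2 (0.606). Ikzf2, the transcription factor Helios, shared the rise within the KO group, at 54.2, 88.3 and 102.1 CPM in KO 4 to 6, while WT replicate 1 (51.1 CPM) stood near KO 4. Ms4a4c shared only the difference between the groups, since its KO libraries lay close together at 94.1, 87.4 and 88.3 CPM.

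The mirror image of the Kit profile was approached less closely. The nearest gene was Mme, the surface peptidase CD10, at 0.621 units from it. It was at 7.62, 6.11 and 5.40 CPM in WT and 1.34, 1.20 and 2.48 CPM in KO libraries, so its groups did not overlap and the KO libraries were the lower ones. The next were the glutamate transporter gene Slc17a6 (0.690), Crmp1 (0.699) and Fam20a (0.699), with every KO library under every WT library in each. Slc17a6 was low, at 1.65 CPM ± 1.24 against 0.397 CPM ± 0.0886 (WT and KO, SD, n = 3 each).

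Variation of Kit within the groups was compared after each gene was centred on its own group means. The choice of Kit used all 6 values, so this too is a description. A gene that is level within the groups lies 0.411 units from Kit on this scale. Among 1224 genes whose spread within the groups was at least 0.5 times that of Kit, the nearest was Ccl22 at 0.110 units, a chemokine best known from dendritic cells and activated lymphocytes. It was at 22.1, 23.1 and 17.2 CPM in WT and 15.3, 29.1 and 37.1 CPM in KO libraries, so its groups overlapped while KO replicates 5 and 6 stood above KO 4 as they did for Kit. Ankrd33b (0.128), carbonic anhydrase gene Car2 (0.143) and Adamtsl4 (0.165) followed. Adamtsl4 was the only one of these 4 whose groups did not overlap, at 2.03, 2.01 and 1.21 CPM in WT and 2.11, 4.00 and 3.92 CPM in KO libraries. With 3 libraries per group this likeness rests on few degrees of freedom.

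**Figure D5:**
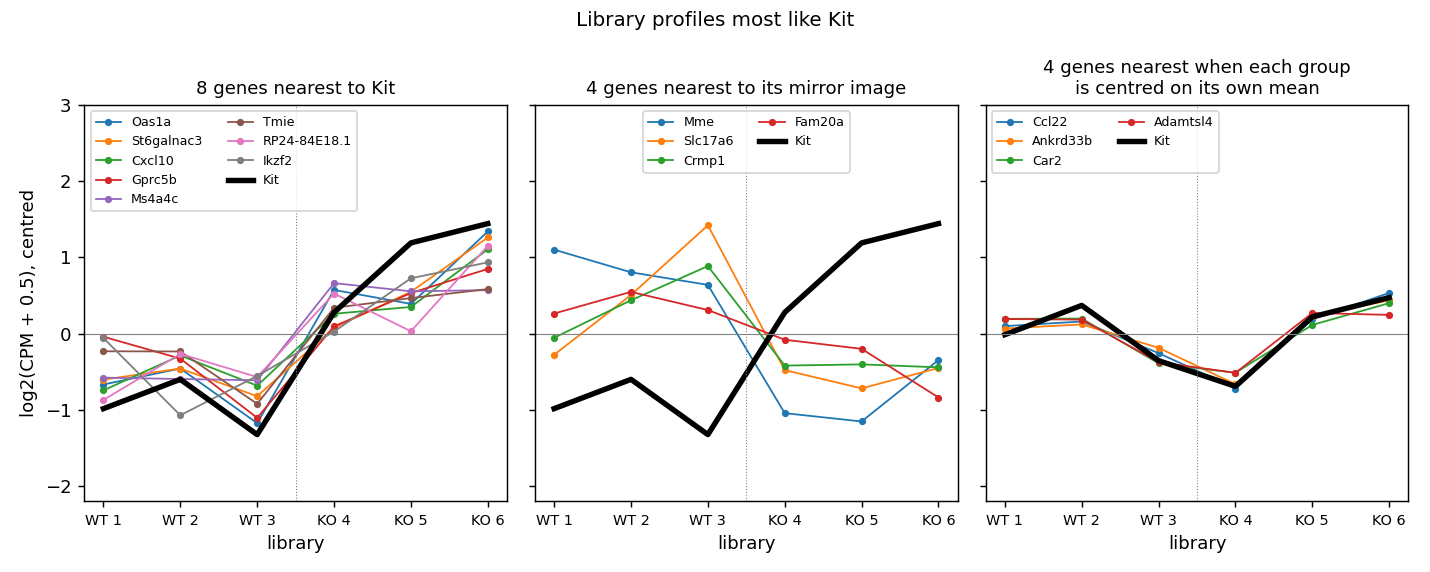
Centred log2(CPM + 0.5) (vertical axis) in the 6 libraries (horizontal axis) for Kit (black) and the genes nearest to it, to its mirror image, and to it after centring each group on its own mean. Oas1a and St6galnac3 run closest to Kit at 0.383 and 0.388 log2 units, and Ccl22 runs closest within the groups at 0.110.

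The state of the T cells was read from lists of naive and memory, effector and activation genes, beside Kit. In the naive and memory list 14 genes were tested and edgeR called 0, while 3 reached an unadjusted p under 0.05, all upward (median log2 fold 0.24). Over all tested genes 0.00659% were called and 3.82% were upward at that p. Slamf6, a receptor of stem-like CD8 T cells, was at 67.5, 57.4 and 52.8 CPM in WT and 88.5, 93.1 and 88.6 CPM in KO libraries. Its groups did not overlap, DESeq2 called it higher (adjusted p = 5.8e-06) and edgeR did not (adjusted p = 0.460), although edgeR did so without WT replicate 1 (adjusted p = 0.011) and without a low-count filter (adjusted p = 0.019). Tcf7, the factor TCF-1 of naive and memory T cells, was at 526.7, 432.9 and 438.0 CPM in WT and 550.5, 648.2 and 561.9 CPM in KO libraries (log2 fold 0.33, edgeR adjusted p = 0.597). For both genes KO replicate 5 was the highest library, while KO 6 was highest for Kit.

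Of the tested effector genes, 16 had negative and 2 positive estimates, beside 7226 negative and 7960 positive over all tested genes. Of 18 tested, edgeR called 0 and 8 were lower and 0 higher at an unadjusted p under 0.05 (median log2 fold -0.58), against 3.44% lower over all genes, and DESeq2 called 2 lower. These 2 were the chemokines Ccl4 (377.0 CPM ± 70.6 against 234.3 CPM ± 26.4, WT and KO, SD, n = 3 each; adjusted p = 8.5e-04 in DESeq2 and 0.525 in edgeR) and Ccl3 (log2 fold -0.90, DESeq2 adjusted p = 0.0022, edgeR adjusted p = 0.596). Ifng was at 69.9, 108.3 and 153.9 CPM in WT and 67.5, 24.2 and 65.0 CPM in KO libraries, and Gzmb, granzyme B, overlapped between the groups (edgeR adjusted p = 0.687 and 0.702). WT replicate 3 had the most Ifng and the least Kit, but WT 2 had more of both than WT 1. Within the KO group, KO 4 had the most Ifng, narrowly above KO 6, and the least Kit. The order there was not fully reversed, since KO 6 had more of both than KO 5. Among 18 activation genes 0 were called, and 3 were lower and 0 higher at an unadjusted p under 0.05, beside 3.44% and 3.82% of all tested genes. The amino acid transporter Slc7a5 (log2 fold -0.30, edgeR adjusted p = 0.597) and Myc (log2 fold -0.22, edgeR adjusted p = 0.600) led them. Il2ra, the high-affinity chain of the IL-2 receptor, was at 902.4, 951.5 and 932.3 CPM in WT and 849.3, 706.9 and 796.6 CPM in KO libraries, without overlap (log2 fold -0.24, edgeR adjusted p = 0.611).

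Cytokine receptors of T cells and the noncanonical NF-kB pathway were read in the same way. Of 21 tested cytokine receptors, 0 were called, and 3 were lower and 0 higher at an unadjusted p under 0.05, beside 3.44% and 3.82% of all tested genes. Estimates were above 0 for 9 and below for 12 (median log2 fold -0.04), where 52.4% of all tested genes were above 0. After Il2ra, the smallest p was that of Il12rb1 (log2 fold -0.18, edgeR adjusted p = 0.647). Among the 15 components of the noncanonical NF-kB pathway 0 were called, and 2 reached an unadjusted p under 0.05, both upward, beside 3.82% of all tested genes (median log2 fold 0.05). Ltb, a ligand of this pathway, was at 190.2, 199.4 and 200.6 CPM in WT and 206.0, 247.7 and 260.9 CPM in KO libraries (edgeR adjusted p = 0.612). Birc2, an inhibitor of NIK, averaged 68.2 and 82.0 CPM (WT and KO means, edgeR adjusted p = 0.662). Both rank the 3 KO libraries in the order of Kit. The share of all tested genes with that order of 3 libraries was not counted, and a link to Kit was not tested. In the list of 12 CD8 T cell identity genes 0 were called, and 2 reached an unadjusted p under 0.05 in each direction, beside 7.26% of all tested genes in either. The groups did not overlap in 6 of the 12 (4 above and 2 below), beside 12.8% of all tested genes. The smallest p were those of Cd247, the zeta chain (log2 fold 0.16, edgeR adjusted p = 0.596), and the receptor constant gene Trbc2 (log2 fold -0.33, edgeR adjusted p = 0.600).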

How the data were processed

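Raw counts per gene symbol for 6 libraries of total RNA, 3 for each genotype label, were deposited as a single table. Per the submitters' processing notes the build was mm10, and HTSeq 0.9.1 and DESeq2 were among the tools. Aligner, annotation and strandedness: not given in the sources used here. Libraries held 41311346 to 47851445 counts and no pair matched within sampling noise. All 49492 rows entered the low-count filter (filterByExpr), which left 15186. The genes other than Kit were tested with edgeR 4.0.16 in R 4.3.3 (TMM, robust glmQLFit, glmQLFTest), with Benjamini-Hochberg adjustment over all tested genes and calls at an adjusted p under 0.05. The SE is the size of the log2 fold over the square root of F. DESeq2 1.42.0 and limma 3.58.1 were alternatives, and the procedure was tested on simulated counts. Lengths came from GENCODE M21 by symbol.

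Kit and the 20 gene lists were chosen with earlier results of these data known. Named genes were a fixed set, the genes nearest to Kit (8), to its mirror image (4) and within groups (4) with a mean of at least 1 CPM and plain symbols, called list members or else the 2 with the smallest p, and 4 neighbours on each side. Others were named, and the promoter motifs picked, after values or the sequence had been seen. Intervals and floors cover counting error only. Some genes that this rule names are not reported here.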

Additional observations from a re-analysis of the deposited data

How the results depend on the processing

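The log2 fold of Kit, whose sign is fixed by the choice of the gene, ran from 2.05 with limma-voom to 2.13 with library totals alone, 2.12 with a term for sex, and 1.86 to 2.39 when 1 library was left out. The count of called genes was 1 in edgeR, 10 without a low-count filter, 89 in DESeq2 (64 higher and 25 lower), and 1 to 119 when 1 library was left out, with 119 without WT replicate 1 and 2 without WT replicate 2. The count of Kit pathway genes at an unadjusted p under 0.05 was 5, and 2 to 11 with 1 library left out: 11 without WT replicate 1, 3 without WT replicate 2, 2 without WT replicate 3, 8 without KO replicate 5 and 3 without KO replicate 6. Of the 8 genes nearest to Kit, 5 stayed among the nearest with a pseudocount of 0.1 CPM, 5 with a minimum mean of 5 CPM, 0 with Pearson r in place of the root mean square difference, and 3 to 7 with 1 library left out (3 without KO replicate 5, 4 without WT replicate 3, and 5 without KO replicate 4 or KO replicate 6). Pearson r ignores the size of the change. For the other changes the cause was not tested.

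Of 67 named genes besides Kit, 5 turned in sign. With 1 library left out, Clock ran from -0.013 (without WT replicate 1) to 0.077, Epor from -0.050 (without KO replicate 6) to 0.28, Flt3 from -0.21 to 0.18 (without KO replicate 4), Gata3 from -0.077 (without KO replicate 5) to 0.14, and Tfrc from -0.026 (without WT replicate 2) to 0.15. Tfrc was also negative without KO replicate 4, and Gata3 without WT replicate 2, without KO replicate 6 and with limma-voom (-0.0098). Ccl3, Ccl4, Myb, Slamf6 and Stat5a passed a threshold under at least 1 alternative. No paired analysis was possible because WT replicates are numbered 1 to 3 and KO replicates 4 to 6, with no number in common. Many markers with fewer than about 10 counts per library did not pass the low-count filter, so a difference in them was not tested.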

Other observations

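Including 1 of the 8 genes nearest to Kit, 26 genes averaging 1 CPM or more ranked all 6 libraries exactly as Kit did, KO 6 highest and WT 3 lowest. Over all tested genes other than Kit there were 32, or 0.211%. The genes given here were chosen after their values were seen. The surface protein gene Ly6e was at 300.8, 310.2 and 284.1 CPM in WT and 377.8, 398.5 and 424.6 CPM in KO libraries. The Schlafen gene Slfn8 was at 29.9, 31.3 and 26.5 CPM in WT and 35.4, 41.9 and 64.3 CPM in KO libraries. The DNA sensor family genes Ifi209 (log2 fold 0.67) and Ifi214 (log2 fold 0.68) and the GTPase gene Tgtp1 (log2 fold 0.26) shared the order, and each belongs to a family of similar genes, so read assignment is uncertain. Milr1, an inhibitory receptor first described on mast cells, did too, at 4.88, 4.90 and 4.53 CPM in WT and 5.33, 6.64 and 6.91 CPM in KO libraries. Pik3c2a, a PI3 kinase catalytic gene, had the same order with a log2 fold of 0.14. The genes named in this paragraph had far smaller folds than Kit, with log2 folds of at most 0.69.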
